A study of Mus musculus with 12 samples.

Results

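Heme is built from iron and protoporphyrin, and either input can be made scarce. The transcriptomes of mouse G1E-ER4 erythroid cells kept short of iron were set directly against those of the same cells kept short of protoporphyrin. The comparison used 6 of the 12 RNA-seq libraries, 3 in which DFO, which chelates iron, was added at 50 µM, and 3 with 0.2 mM SA, the agent the labels use to inhibit ALAD. ALAD is the second enzyme of the heme pathway. The comparison covered 11917 of 55367 gene symbols, those with at least 1 TPM (a transcript level scaled by gene length and to the same total in every library) in at least 3 of the 12 libraries. Another 3 libraries of cells without an added agent served as the background control. The last 3, from cells given 50 µM DTPA, a zinc chelator, were not compared with the others. They entered the expression minimum, the choice among entries of a repeated symbol, the median-of-ratios factors and the estimate of the spread between libraries.

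All groups shared the same cells and induction. G1E-ER4 is a single clonal line derived from Gata1-null embryonic stem cells that carries GATA1 fused to an estrogen receptor ligand-binding domain, and 100 nM estradiol starts its maturation. Estradiol and the agent were added together and the cells were harvested 24 h later. Each agent was used at 1 dose and 1 time, and neither iron, protoporphyrin nor heme was measured in these files, so whether the doses lowered heme equally was not tested. The sample titles and treatment tags give SA to the third group, while the treatment protocol names DFO for the ALAD-inhibited cells; the titles and tags were followed. The labels call the libraries biological replicates without saying how the cultures were separated, and the p-values therefore reflect only how much these libraries vary, which may be technical.

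The libraries held 19864704 to 23479554 reads with DFO and 20945607 to 22680673 with SA, recovered from the TPM values and gene lengths. In all 9 libraries of the control, DFO and SA groups the erythroid markers were high, with mean Alas2 levels of 2268, 2137 and 2164 TPM. Of 14 megakaryocyte markers 5 passed the expression minimum, and their summed level, mostly the tubulin Tubb1, was 128 to 129.5 TPM with DFO and 129 to 135 TPM with SA. The 22 myeloid and mast cell markers summed to 2.95 to 3.81 TPM with DFO and 3.14 to 4.74 TPM with SA, and the 15 lymphoid markers to under 1 TPM in every library. Mpo, Lyz2 and Vwf were listed at 0 throughout, and none of the tested markers of these 3 lists was called between DFO and SA. In cultures measured in bulk, fewer cells of a type and less RNA per cell cannot be told apart.

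Ferrochelatase places iron into protoporphyrin IX in the mitochondrion as the last step of heme synthesis. Iron shortage is read by the iron regulatory proteins, which then bind a short RNA hairpin, the iron-responsive element: binding in a 3′ untranslated region protects the transferrin receptor mRNA from decay, and binding in a 5′ untranslated region blocks translation of ferritin, ferroportin and the erythroid aminolevulinate synthase. Heme shortage is read separately, by the repressor BACH1, which heme inactivates, and by the kinase HRI, which heme inhibits and which phosphorylates eIF2alpha to favour translation of ATF4. In maturing red cells HRI keeps globin synthesis in step with heme.

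The hairpins in the transcripts of this system are shown because they are the sites that the iron regulatory proteins bind. The sequences were read from GENCODE M21 transcripts on GRCm38 (mm10), 5′ to 3′ on the transcript strand, with the 6-base loop in capitals. The pattern searched was a C, 5 bases that pair with the 5 bases after the loop (G-U pairs allowed), and the loop CAGTG followed by A, C or T. It was found in the untranslated regions of 5 of the 8 tested genes listed as carriers, and in 78 of the 9094 tested genes with a coding transcript (0.858%). No match says only that this strict pattern is not in the annotated untranslated regions, as for Slc11a2 and Cdc42bpa. A hairpin with a mismatch among the 5 pairs would be missed.
Tfrc 3′ UTR, chr16:32631220-32631246, plus strand: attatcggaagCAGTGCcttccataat
Tfrc 3′ UTR, chr16:32631599-32631625, plus strand: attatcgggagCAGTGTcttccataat
Tfrc 3′ UTR, chr16:32631664-32631690, plus strand: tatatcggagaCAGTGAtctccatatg
Tfrc 3′ UTR, chr16:32631711-32631737, plus strand: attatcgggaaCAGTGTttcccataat
Slc40a1 5′ UTR, chr1:45925466-45925492, minus strand: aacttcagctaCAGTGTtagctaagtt
Ftl1 5′ UTR, chr7:45459780-45459806, minus strand: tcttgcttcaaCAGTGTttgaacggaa
Fth1 5′ UTR, chr19:9982733-9982759, plus strand: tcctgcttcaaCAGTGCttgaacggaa
Alas2 5′ UTR, chrX:150547459-150547485, plus strand: tggttcgtcctCAGTGCagggcaacag

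Between DFO and SA, 1611 of 11917 genes (13.5%) differed at a limma adjusted p under 0.05, 860 of them (7.22%) higher with DFO and 751 (6.30%) lower. Most of these differences were small: the median absolute log2 difference of the called genes was 0.20, and 94 called genes reached 1.5-fold. Differences below are ± SE on the log2(TPM + 1) scale used for every test. On this scale, which understates the change of low genes, 15 genes were at least 2-fold higher with DFO and 15 at least 2-fold lower. The DFO and SA libraries did not overlap for 3801 genes (31.9%), among them 1605 of the 1611 called. Among the 9 libraries the first principal component carried 20.2% of the variance and placed DFO, at -1.48, -3.24 and -3.14, between the controls, at -15.0, -10.7 and -12.9, and SA, at 14.2, 15.1 and 17.0. The second carried 14.4% and set DFO, at -8.79, -20.2 and -10.6, apart from both the controls (6.39 to 10.1) and SA (3.26 to 5.83). DFO replicate 2 lay farthest out on it, and DFO replicate 2 was also the shallowest library. Leaving out any 1 of the 6 libraries gave 1134 to 1207 calls.

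**Figure D1:**
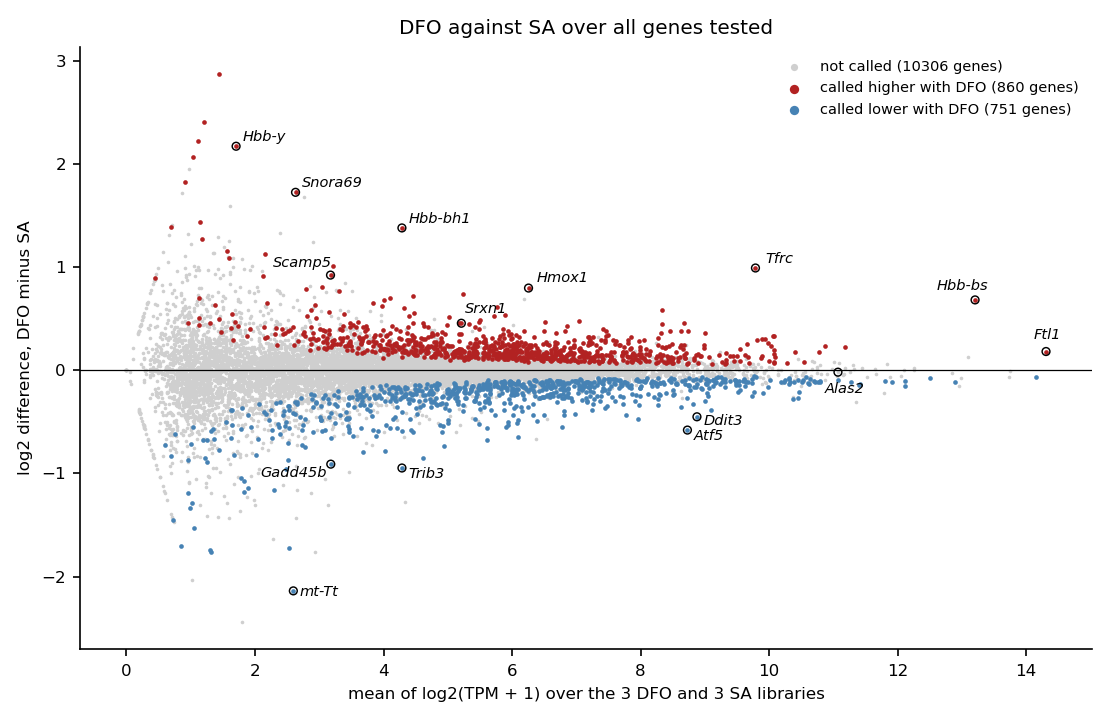
Each point is 1 of the 11917 tested genes, with the mean log2(TPM + 1) over the DFO and SA libraries on the horizontal axis and the log2 difference, DFO minus SA, on the vertical axis. Called genes are coloured, 860 higher and 751 lower with DFO, and the median over all genes lies at 0.

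**Figure D2:**
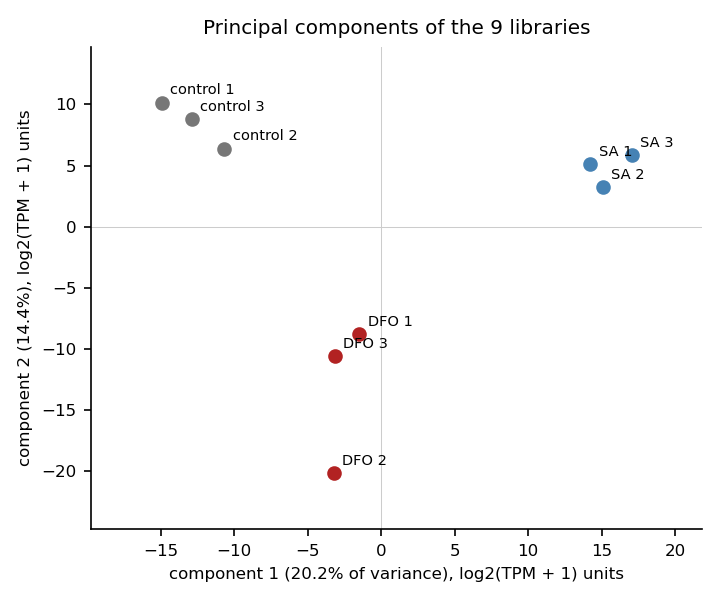
The first 2 principal components of log2(TPM + 1) in the 3 control, 3 DFO and 3 SA libraries, with the share of variance on each axis. DFO lies between the controls and SA on the first component and below both on the second, where DFO replicate 2 is lowest at -20.2.

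Against the same 3 control libraries each agent also had calls of its own, given here as background. With DFO 1000 genes (8.39%) were higher and 272 (2.28%) lower than in the controls, and with SA 1838 (15.4%) were higher and 804 (6.75%) lower. These splits depend on the scaling: scaled by median-of-ratios factors, 423 were higher and 646 lower with DFO, and 1124 higher and 1624 lower with SA. The median log2 difference of all genes from the controls was 0.045 with DFO before this scaling and -0.006 after it. Between DFO and SA the split hardly moved, with 959 higher and 777 lower after the same scaling. Because both contrasts rest on the same controls, their values are set side by side below and not correlated.

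Several iron genes were higher with low iron than with low protoporphyrin, the transferrin receptor most of all. Tfrc (chr16:32608920-32632794, plus strand), which brings transferrin-bound iron into the cell, stood at 1302, 1217 and 1217 TPM with DFO, 624, 606 and 648 TPM with SA and 909, 861 and 879.7 TPM in the controls. All DFO libraries lay above and all SA libraries below every control, without overlap. The DFO mean was 1.99 times the SA mean (log2 difference 0.99 ± 0.034, limma adjusted p = 1.34e-07), and Tfrc was called in opposite directions against the controls, at 0.50 with DFO and -0.50 with SA. Of 13 tested genes of iron uptake, storage and export, 6 were higher with DFO and 1 lower (7.22% and 6.30% of all genes), with a median log2 difference of 0.12 where all genes had a median of 0, and 2 were lower without DFO replicate 3.

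The iron exporter ferroportin, Slc40a1, stood at 20.5, 21.2 and 20.7 TPM with DFO, 16.4, 15.0 and 15.7 TPM with SA and 20.1, 18.3 and 19.2 TPM in the controls. The DFO and SA libraries were apart, with DFO higher by 0.38 ± 0.042 on the log2 scale (limma adjusted p = 1.59e-04). The importer Slc11a2, which carries iron out of the endosome, was higher by 0.25, with 29.8, 29.3 and 30.3 TPM against 25.03, 24.5 and 25.2 TPM (limma adjusted p = 0.00486). Ferritin light chain, Ftl1, among the most abundant mRNAs of these cells, read 21540.3, 21759 and 21522 TPM with DFO and 18805, 19205 and 19143 TPM with SA, both below the controls at 27082, 25089.5 and 24927 TPM. DFO was the higher of the pair by 0.18 (limma adjusted p = 0.0015), a call lost when genes of low level were kept in the fit (adjusted p = 0.168). The heavy chain, Fth1, had a log2 difference of 0.08 (95% interval 0.02 to 0.14) that was not called (limma adjusted p = 0.0766).

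Further genes of iron handling differed in opposite senses. Aco1, which becomes iron regulatory protein 1 when its iron-sulfur cluster is lost, stood at 129, 131 and 124 TPM with DFO and 111, 111 and 108 TPM with SA (log2 difference 0.22 ± 0.022, limma adjusted p = 9.03e-05). Its partner in sensing, Ireb2, read 44.5, 41.2 and 40.8 TPM and 42.0, 41.5 and 44.7 TPM, overlapped, and was not called. Ncoa4, the receptor that delivers ferritin to autophagy, was the iron gene called lower with DFO, at 218, 212 and 212 TPM against 255, 245 and 256 TPM (log2 difference -0.23 ± 0.026, limma adjusted p = 1.65e-04). Against the controls, at 234, 221 and 233 TPM, Ncoa4 was lower with DFO (-0.10) and higher with SA (0.13). Pcbp1, an iron chaperone for ferritin, and Exoc6, an exocyst subunit of transferrin recycling, were higher with DFO by 0.15 and 0.12. Of the 8 tested carriers of the hairpin, 5 were higher with DFO than with SA and none lower (7.22% and 6.30% of all genes). When genes of low level were kept in the fit, 3 were higher. Against the shared controls 1 carrier was higher and 3 were lower with DFO (8.39% and 2.28% of all genes). With SA none was higher and 6 were lower (15.4% and 6.75% of all genes). Tfrc holds the printed pattern in its 3′ region, and Slc40a1 and Ftl1 hold it in their 5′ regions. Fth1 and Alas2 also hold it in their 5′ regions and were not called. Slc11a2, in which no match was found, was higher with DFO.

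**Figure D3:**
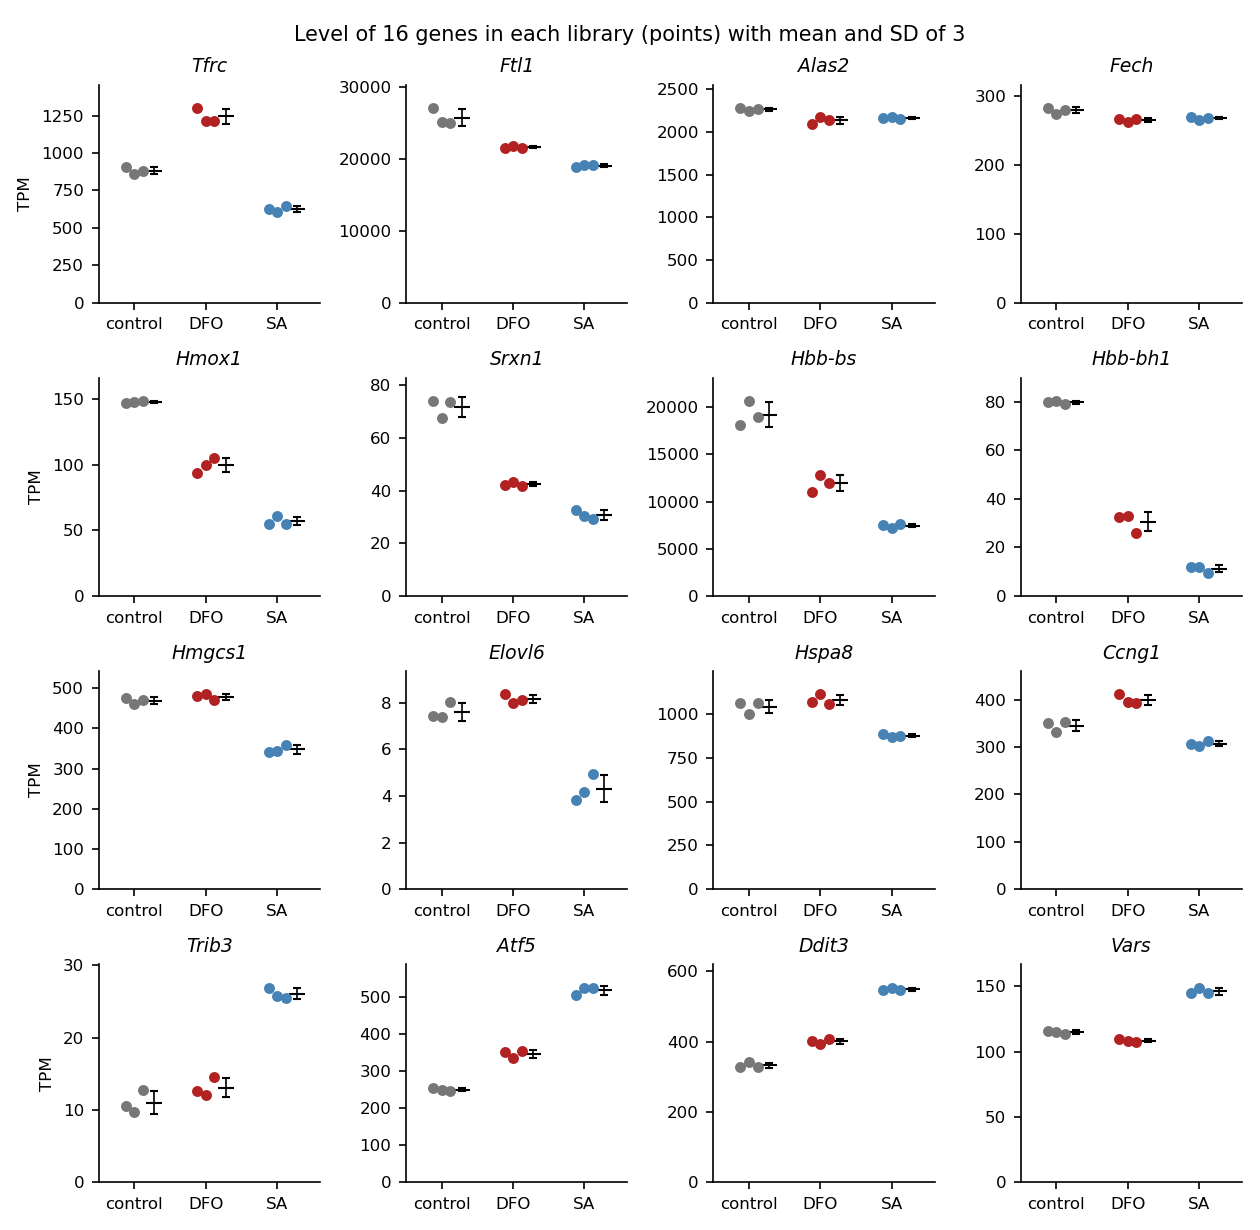
TPM (vertical axis, from 0) of 16 genes in each control, DFO and SA library, with points for the 3 libraries of a group and bars for the mean ± SD. Tfrc is above the controls with DFO and below them with SA, Hmox1, Srxn1, Hbb-bs and Hbb-bh1 step down from control to DFO to SA, and Atf5, Ddit3 and Trib3 are highest with SA.

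Of the 9 tested enzymes that make heme, none was higher with DFO and 3 were lower (7.22% and 6.30% of all genes), Alad and Ppox among them. The median log2 difference of the 9 was -0.03. Alas2, the rate-limiting erythroid enzyme, read 2096, 2172 and 2141 TPM with DFO and 2169, 2174 and 2149.5 TPM with SA; the groups overlapped and the 95% interval of the difference was -0.05 to 0.02. Ferrochelatase, Fech, read 267, 263 and 268 TPM and 269, 266 and 269 TPM, with an interval of -0.05 to 0.03. Alad, the enzyme whose activity the SA label targets, read 578, 585 and 559 TPM with DFO, 623, 631 and 636 TPM with SA and 669.6, 653 and 681 TPM in the controls. Its mRNA was lower with DFO than with SA (log2 difference -0.13 ± 0.026, limma adjusted p = 0.00533) and lower with both than in the controls, so the label of enzyme inhibition is not checked by this transcript. Ppox, a later enzyme of the pathway, differed by -0.10, a call lost without DFO replicate 2 or without SA replicate 3, where Alad was the 1 enzyme of the list still called.

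The mitochondrial carriers Slc25a38 and Slc25a39, which serve the pathway, were lower with DFO than with SA. Slc25a38, which imports glycine for the first step, stood at 233, 232 and 231 TPM with DFO and 271, 288 and 273 TPM with SA, against 255, 251 and 252 TPM in the controls. The 3 DFO libraries were the lowest and the 3 SA libraries the highest (log2 difference -0.25 ± 0.027, limma adjusted p = 1.11e-04). Slc25a39, the mitochondrial glutathione carrier, stood at 305, 312 and 312 TPM with DFO and 357, 364 and 361 TPM with SA, and the SA libraries overlapped the control values of 356, 353 and 364 TPM. The log2 difference was -0.22 ± 0.019 (limma adjusted p = 2.71e-05). Among the 12 partners of heme synthesis 2 were higher with DFO and 4 lower (7.22% and 6.30% of all genes). Fam210b and Tmem14c, the other pair of lower calls, were lost after median-of-ratios scaling and without DFO replicate 1 or 2 or any SA replicate. In those fits 2 higher and 2 lower calls were counted. Snx3, a sorting nexin that recycles the transferrin receptor, and the mitochondrial transporter Abcb10 were higher with DFO by 0.13 and 0.07.

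Most genes repressed by BACH1 and activated by NRF2 were lower than in the controls with both agents and lower still with SA. Hmox1 (chr8:75093621-75100589, plus strand), the oxygenase that opens the heme ring, read 147, 148 and 149 TPM in the controls, 94.2, 100.0 and 105 TPM with DFO and 55.2, 60.7 and 55.2 TPM with SA. The 3 groups formed separate steps, and the DFO mean was 1.75 times the SA mean (log2 difference 0.80 ± 0.055, limma adjusted p = 5.93e-06). Of 22 tested targets 18 were higher with DFO than with SA and none lower (7.22% and 6.30% of all genes). Their median log2 difference was 0.24. Against the shared controls 1 was higher and 17 lower with DFO (median -0.21, with 2.28% of all genes lower), and 21 were lower and none higher with SA (median -0.45, with 6.75% of all genes lower).

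Srxn1, the sulfiredoxin that repairs peroxiredoxins, followed the same steps, at 73.9, 67.4 and 73.6 TPM in the controls, 42.2, 43.2 and 41.7 TPM with DFO and 32.6, 30.3 and 29.1 TPM with SA (log2 difference 0.46 ± 0.044, limma adjusted p = 6.36e-05). Me1, an NADPH-producing malic enzyme, was 1.82 times higher with DFO, at 11.0, 12.0 and 13.1 TPM against 6.32, 6.41 and 7.11 TPM (limma adjusted p = 1.88e-04). Gclm, the regulatory subunit of glutathione synthesis, read 163, 162 and 164 TPM with DFO and 128, 129 and 133 TPM with SA, with no overlap (log2 difference 0.32 ± 0.025, limma adjusted p = 1.51e-05). The pentose phosphate enzymes Pgd and G6pdx were higher with DFO by 0.38 and 0.25, glutathione reductase Gsr by 0.35, and thioredoxin reductase Txnrd1 by 0.26. Catalase, Cat, read 870.1, 889.6 and 892 TPM with DFO and 735, 751 and 737 TPM with SA, against 1030.2, 1016 and 1027 TPM in the controls. A classical NRF2 target, the quinone reductase Nqo1, did not follow them. At 20.9, 21.5 and 21.03 TPM with DFO and 22.8, 21.6 and 23.0 TPM with SA it was not called between the agents (limma adjusted p = 0.638), although both lay below the controls at 41.0, 35.4 and 37.9 TPM.

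Other heme-handling genes were also higher with DFO than with SA. The heme importer Slc48a1 stood at 118, 115 and 114 TPM with DFO and 90.6, 90.1 and 88.8 TPM with SA (log2 difference 0.36 ± 0.022, limma adjusted p = 2.86e-06). Biliverdin reductase B, Blvrb, was higher with DFO by 0.22 and the porphyrin exporter Abcg2 by 0.21, and for both the DFO libraries lay close to the controls while the SA libraries lay below. Of 10 tested genes of heme breakdown and transport 5 were higher with DFO and none lower (7.22% and 6.30% of all genes). The list of glutathione, thioredoxin and NADPH metabolism, which shares many members with the BACH1 and NRF2 list, had 30 tested genes. Of these 14 were higher with DFO and 2 lower (7.22% and 6.30% of all genes). Without DFO replicate 2 or 3, SA replicate 1 or 3 or control replicate 1 or 3, 1 was lower. The larger of the lower differences was in Txnrd2, the mitochondrial thioredoxin reductase, at 95.9, 97.2 and 98.4 TPM with DFO and 129, 129 and 126 TPM with SA (log2 difference -0.40 ± 0.026, limma adjusted p = 4.69e-06).

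The promoters of these genes were searched for the core of the antioxidant response element, TGACNNNGC, on both strands, over 250 bases before to 50 bases after the RefSeq start (GRCm38.p6). It was present in 8 of the 17 tested members with a promoter in the table (47.1%) and in 1336 of the 7841 tested genes with one (17.0%). Of the 8, 4 that were higher with DFO than with SA and hold the match upstream of the start are shown, with the match in capitals; in each it lies on the opposite strand.
Gclm, chr3:122245403-122245451, plus strand: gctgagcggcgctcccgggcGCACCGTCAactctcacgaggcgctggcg
Txnrd1, chr10:82859094-82859142, plus strand: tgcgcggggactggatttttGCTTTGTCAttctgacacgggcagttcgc
Prdx1, chr4:116685446-116685494, plus strand: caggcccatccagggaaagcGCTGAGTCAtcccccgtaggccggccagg
G6pdx, chrX:74428909-74428957, minus strand: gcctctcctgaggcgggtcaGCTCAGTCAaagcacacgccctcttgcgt

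The beta-like globin mRNAs Hbb-bh1, Hbb-y and Hbb-bs were lower than in the controls with both agents and lowest with SA. The embryonic Hbb-bh1 (chr7:103841637-103843164, minus strand) read 80.1, 80.3 and 79.1 TPM in the controls, 32.7, 33.2 and 26.1 TPM with DFO and 11.9, 12.1 and 9.48 TPM with SA. The 3 groups were separate, and DFO was 2.75 times SA (log2 difference 1.38 ± 0.095, limma adjusted p = 5.83e-06). The other embryonic gene, Hbb-y, read 15.5, 15.97 and 13.3 TPM, 7.68, 3.29 and 7.92 TPM and 0.460, 0.443 and 0.725 TPM in the same order. It had the largest log2 difference of the named genes, 2.17 ± 0.22 (limma adjusted p = 9.28e-05), from SA levels under 1 TPM. DFO replicate 2, at 3.29 TPM, was the lowest of its group.

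The adult beta-globin Hbb-bs read 18083, 20655 and 18965 TPM in the controls, 11054, 12848 and 12022 TPM with DFO and 7506, 7242 and 7609 TPM with SA (log2 difference 0.68 ± 0.058, limma adjusted p = 2.53e-05). Hbb-bs and Hbb-bt are nearly identical copies, so the share of reads given to each is uncertain, and Hbb-bt varied widely within SA, at 725, 3230.1 and 1139.9 TPM. The sum of the pair was 20264, 23984 and 21506 TPM in the controls, 12172, 14407 and 13286 TPM with DFO and 8231, 10472 and 8749 TPM with SA, and these sums did not overlap between groups. The alpha-globin sums overlapped between the agents. The sum of the near-identical Hba-a1 and Hba-a2 was 12203, 10941 and 11694 TPM with DFO and 11709, 11291 and 10939 TPM with SA, against 13899, 15643 and 15261 TPM in the controls. Hba-a1 alone was not called between the agents (log2 difference 0.13, 95% interval 0.04 to 0.21), nor was the embryonic Hba-x, at 2.04, 3.07 and 2.02 TPM with DFO and 3.11, 3.14 and 1.47 TPM with SA. Over the 10 tested globins 3 were higher with DFO and none lower (7.22% and 6.30% of all genes). Together the globins took 2.50% ± 0.0490 of TPM with DFO, 2.05% ± 0.114 with SA and 3.70% ± 0.274 in the controls (SD, n = 3).

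Most ATF4 targets were higher with SA than with DFO or in the controls. Of 20 tested ATF4 targets 14 were lower with DFO than with SA and none higher (6.30% and 7.22% of all genes). Their median log2 difference was -0.26. Against the shared controls 12 were higher with DFO (median 0.20, with 8.39% of all genes higher) and 16 with SA (median 0.48, with 15.4% higher), and none was lower with either agent. After median-of-ratios scaling 10 were higher with DFO and 16 with SA. Atf5, a factor induced by ATF4 that promotes chaperone and protease genes of mitochondrial stress, read 254, 249 and 247 TPM in the controls, 350.5, 335 and 353 TPM with DFO and 504, 525 and 525 TPM with SA. The 3 groups formed ascending steps (log2 difference -0.58 ± 0.028, limma adjusted p = 1.10e-06 between DFO and SA). Ddit3, the factor CHOP, stepped in the same way at 328, 341 and 327, 401, 394 and 408 and 547, 553 and 545 TPM (log2 difference -0.45 ± 0.02, limma adjusted p = 6.00e-07). Its symbol occurs more than once in the files, and the copy with the higher level was used.

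Trib3, a pseudokinase that feeds back on ATF4, was the target with the largest gap. It read 12.7, 12.0 and 14.5 TPM with DFO, within or just above the control values of 10.5, 9.70 and 12.8 TPM, and 26.9, 25.8 and 25.5 TPM with SA. The SA mean was 1.99 times the DFO mean (log2 difference -0.95 ± 0.098, limma adjusted p = 9.03e-05), and Trib3 was called against the controls with SA (1.18) while DFO had a log2 difference of 0.24 that was not called. Cebpg, a partner of ATF4 in binding DNA, read 38.7, 35.0 and 36.2 TPM with DFO and 53.8, 53.6 and 51.0 TPM with SA (log2 difference -0.52 ± 0.05, limma adjusted p = 6.45e-05). Sesn2, a stress-induced brake on mTORC1, differed by -0.38, and Atf4 itself by -0.29, at 121, 120.4 and 124 TPM against 145, 151 and 152 TPM. Of 12 tested amino acid transporters 4 were lower with DFO and 1 higher (6.30% and 7.22% of all genes), and 7 were not called. The lower ones, Slc38a2, Slc3a2, Slc7a1 and Slc7a5, had log2 differences of -0.35, -0.34, -0.28 and -0.22, and the higher one, Slc38a7, had one of 0.15, a call lost without DFO replicate 1 or 2 or SA replicate 1 or 3. Asparagine synthetase, Asns, showed a smaller gap, at 441, 460.2 and 449 TPM with DFO and 492, 489.6 and 502 TPM with SA (log2 difference -0.13 ± 0.019, limma adjusted p = 8.33e-04).

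The ATF4 composite site TGATGNAA was searched on both strands in the same promoter windows. It was found in 3 of the 18 tested targets with a promoter window (16.7%), Asns, Trib3 and Nupr1. Of the 7841 tested genes with a window, 197 held it (2.51%). The window of Asns is shown because its match lies on the gene's own strand just upstream of the start.
Asns, chr6:7693210-7693252, minus strand: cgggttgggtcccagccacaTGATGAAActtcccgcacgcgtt
The known targets Chac1 and Gdf15 were listed at 0 in all 9 libraries, and Slc7a11, the cystine transporter, was near 0, so neither agent's effect on them could be read.

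Of 10 tested eIF2alpha kinases and regulators 1 was higher with DFO and 2 lower (7.22% and 6.30% of all genes). None was higher and 1 lower without DFO replicate 3 or SA replicate 1 or 2, none was higher and 2 lower without DFO replicate 1 or 2 or control replicate 2, and 1 was higher and 1 lower without SA replicate 3 or control replicate 1 or 3. Eif2ak1, which encodes HRI, read 473, 473 and 474 TPM with DFO and 454, 467 and 454 TPM with SA and was not called (log2 difference 0.05, 95% interval 0.01 to 0.08). Of 20 cytosolic aminoacyl-tRNA synthetases, which charge tRNAs with amino acids, 10 were lower with DFO and 2 higher (6.30% and 7.22% of all genes). Valyl-tRNA synthetase, Vars, read 109, 108 and 107 TPM with DFO and 145, 149 and 145 TPM with SA, against 116, 115 and 113 TPM in the controls (log2 difference -0.43 ± 0.028, limma adjusted p = 4.69e-06). In the serine and one-carbon list of 13 tested genes, 5 were lower with DFO and 2 higher (6.30% and 7.22% of all genes). Without DFO replicate 1 or SA replicate 2, 1 was higher. The mitochondrial enzymes Shmt2 and Mthfd2 and the serine enzyme Psat1 differed by -0.25, -0.27 and -0.20, while the cytosolic trifunctional enzyme Mthfd1 was higher with DFO by 0.24.

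**Figure D4:**
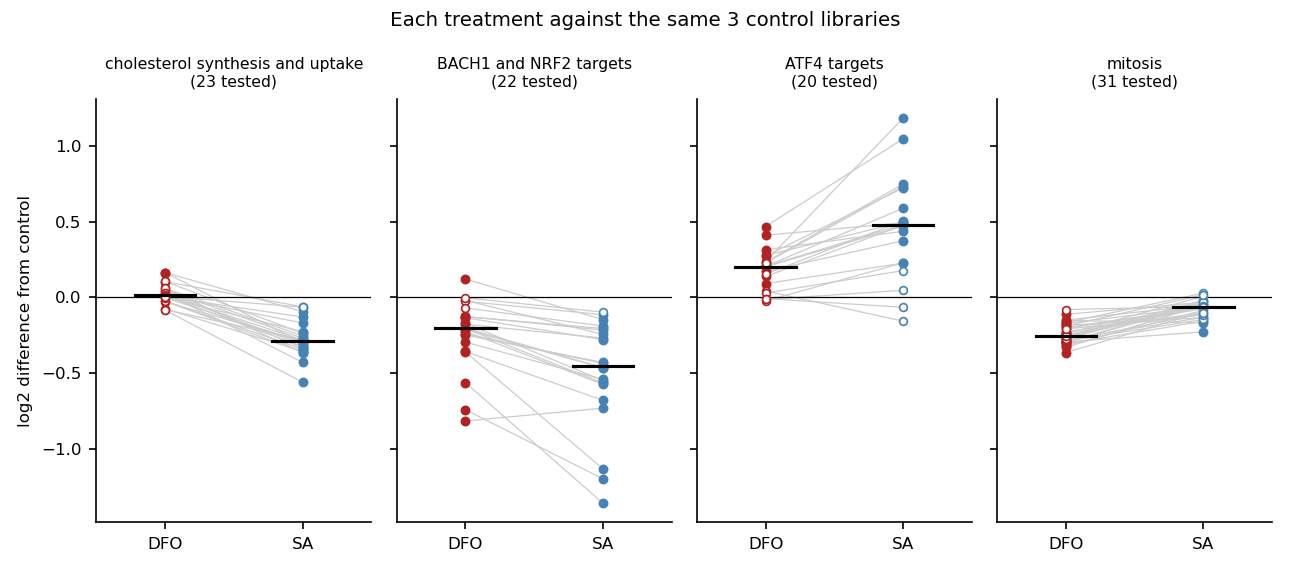
Log2 difference from the same 3 control libraries (vertical axis) for each tested member of 4 lists, with DFO and with SA side by side, filled points being called and open points not called. ATF4 targets lie mostly above 0 and higher with SA, BACH1 and NRF2 targets mostly below 0 and lower with SA, cholesterol genes near 0 with DFO and below it with SA, and mitotic genes lower with DFO.

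Every tested gene of cholesterol synthesis and uptake was higher with DFO than with SA. All 23 were called, with a median log2 difference of 0.31, where 7.22% of all genes were higher. Against the shared controls 3 of the 23 were higher and none lower with DFO (median 0.01, with 8.39% and 2.28% of all genes). With SA none was higher and 22 were lower (median -0.29, with 15.4% and 6.75% of all genes). After median-of-ratios scaling 1 was higher and 4 were lower with DFO. Hmgcs1, an early enzyme of the pathway, read 479.7, 484 and 469.8 TPM with DFO, 340.3, 343 and 359 TPM with SA and 477, 459 and 469.9 TPM in the controls. The DFO and control libraries overlapped and the SA libraries lay below both (log2 difference 0.46 ± 0.026, limma adjusted p = 2.40e-06 between DFO and SA).

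Members from the early to the late steps of the pathway showed the difference. Idi1, the isopentenyl diphosphate isomerase, read 159, 156 and 149 TPM with DFO and 112, 105 and 115 TPM with SA (log2 difference 0.48 ± 0.038, limma adjusted p = 1.65e-05). Dhcr7, the last reductase of cholesterol synthesis, read 51.2, 52.5 and 51.6 TPM and 37.2, 38.5 and 36.1 TPM, and its DFO libraries were also above the controls at 46.9, 45.7 and 45.9 TPM. Srebf2, the factor that activates these genes, had the smallest difference of the list, 0.07, and its call was lost under some alternatives (adjusted p up to 0.145). In the opposite direction, Soat2, which esterifies cholesterol for storage and was not in the list, was 1.70 times higher with SA, at 34.9, 38.9 and 41.9 TPM against 22.8, 21.8 and 23.5 TPM (limma adjusted p = 6.82e-05).

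The sterol regulatory element TCACNCCAC was searched on both strands of the promoter windows. It was found in 1 of the 16 tested cholesterol genes with a promoter window (6.25%), Hmgcs1. Of the 7841 tested genes with a window, 100 held it (1.28%). The upstream window of Hmgcs1 is shown as the 1 match in the list. Whether the element has a part in the differences was not tested.
Hmgcs1, chr13:119690194-119690242, plus strand: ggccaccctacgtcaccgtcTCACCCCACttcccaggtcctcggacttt

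Fatty acid synthesis differed in the same direction. Of 12 tested genes 9 were higher with DFO and none lower (median 0.25, with 7.22% and 6.30% of all genes). Elovl6, which elongates palmitate, read 8.36, 8.01 and 8.11 TPM with DFO, 3.83, 4.18 and 4.95 TPM with SA and 7.42, 7.37 and 8.05 TPM in the controls. SA stood apart below both other groups, and DFO was 1.89 times SA (log2 difference 0.79 ± 0.084, limma adjusted p = 1.23e-04). Fatty acid synthase, Fasn, was higher with DFO by 0.33, ATP citrate lyase, Acly, by 0.27, and acetyl-CoA carboxylase, Acaca, by 0.24. Idh1, a cytosolic source of NADPH, read 454, 454 and 446 TPM with DFO and 349, 348 and 346 TPM with SA, with the DFO libraries beside the controls at 449, 436 and 441 TPM (log2 difference 0.38 ± 0.019, limma adjusted p = 1.31e-06).

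**Figure D5:**
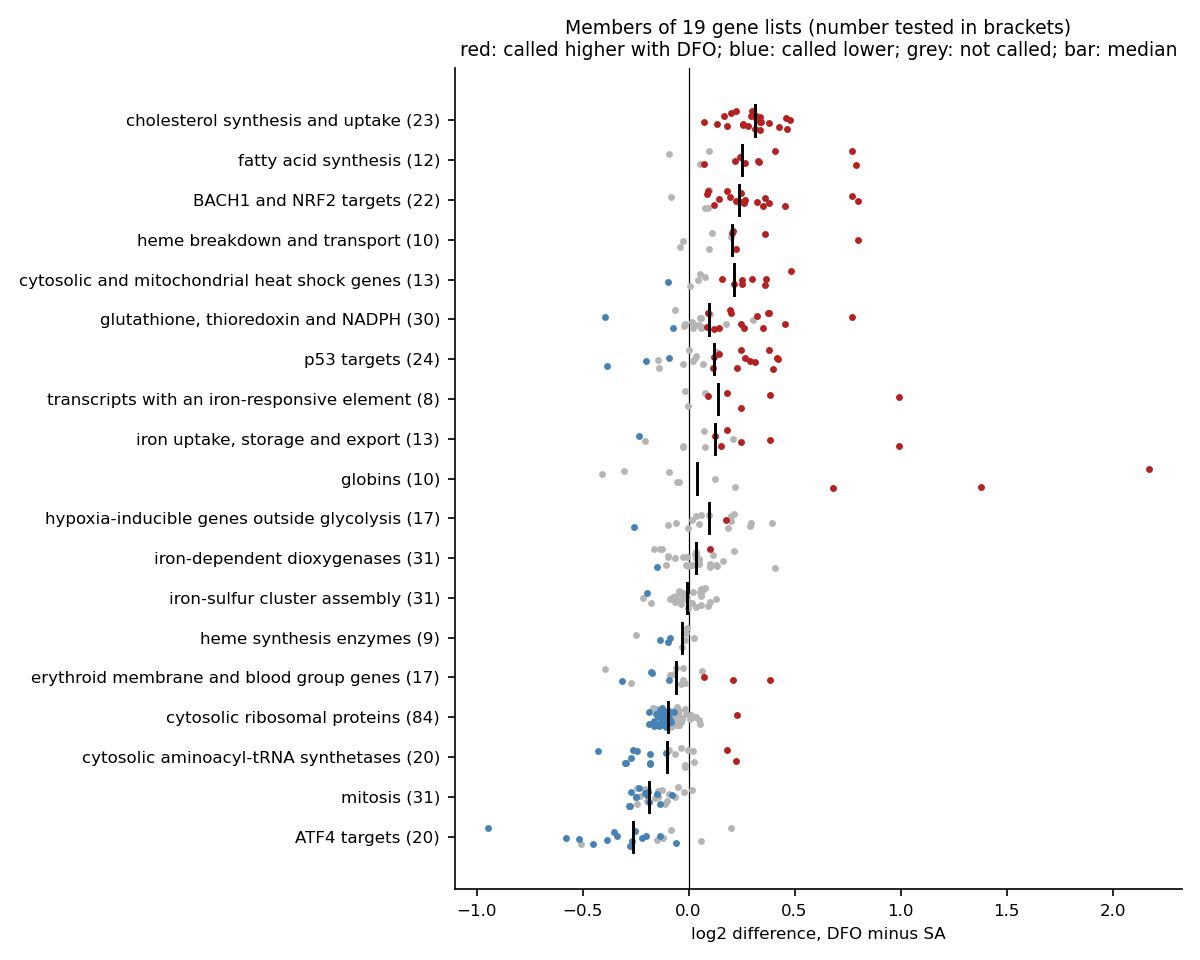
Log2 difference, DFO minus SA, for each tested member of the gene lists, with 1 point a gene and a bar at each list's median. Cholesterol genes lie wholly above 0, with a median of 0.31, ATF4 targets lie mostly below 0, with a median of -0.26, and heme synthesis enzymes lie close to it, with a median of -0.03.

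Several chaperone genes were also lower with SA. Of 13 tested heat shock genes 8 were higher with DFO and 1 was lower (median 0.22), or 6 and none without DFO replicate 1 or SA replicate 2. Hspa8, the constitutive HSP70 that holds nascent chains, read 1068, 1113 and 1060.0 TPM with DFO, 887, 868 and 878 TPM with SA and 1064, 1004 and 1063 TPM in the controls. The SA libraries lay below all controls while 1 DFO library lay among them, and the difference between the agents was 0.30 ± 0.026 (limma adjusted p = 3.09e-05). Hsph1, a nucleotide exchange factor of HSP70, read 53.02, 53.5 and 52.1 TPM with DFO and 39.0, 35.0 and 38.6 TPM with SA, and its controls, at 63.3, 59.1 and 62.3 TPM, lay above both (log2 difference 0.49 ± 0.044, limma adjusted p = 4.14e-05). Hsp90aa1 and Hsp90ab1, the HSP90 chaperones, were higher with DFO by 0.36 and 0.36. Among 19 tested chaperones of the endoplasmic reticulum 3 were higher with DFO and 1, calreticulin (Calr, -0.19), was lower. Over all genes 7.22% were higher and 6.30% lower. Of these chaperones 1 was higher and 1 lower without DFO replicate 1 or 2 or SA replicate 2. Without SA replicate 1, 1 was higher and 2 were lower.

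Targets of p53, which DNA damage and other stresses are known to engage, were often higher with DFO. Of 24 tested, 12 were higher with DFO than with SA and 3 lower (median 0.12, with 7.22% and 6.30% of all genes). Against the shared controls 9 were higher and none lower with DFO (8.39% and 2.28% of all genes). With SA 4 were higher, a share near that of all genes (15.4%), and 8 were lower (6.75% of all genes). After median-of-ratios scaling these were 5 higher with DFO, and 4 higher and 12 lower with SA. Of all 11917 genes 423 were then higher with DFO, and 1124 were higher and 1624 lower with SA. Ccng1, a cyclin and early p53 target, read 411, 395 and 392 TPM with DFO, 307, 302 and 313 TPM with SA and 351, 332 and 352 TPM in the controls. DFO lay above and SA below every control (log2 difference 0.38 ± 0.027, limma adjusted p = 8.07e-06). Zmat3, an RNA-binding target of p53, lay on both sides of the controls in the same way, at 24.7, 22.9 and 21.7 TPM and 16.5, 18.05 and 16.5 TPM against 20.3, 18.9 and 20.2 TPM. The cell-cycle inhibitor Cdkn1a read 189, 200.4 and 195 TPM with DFO and 153, 146 and 143 TPM with SA, and its DFO libraries overlapped the controls at 199.8, 198 and 191 TPM (log2 difference 0.40 ± 0.031, limma adjusted p = 1.52e-05 between the agents). Bax, a trigger of apoptosis, and Mdm2, which degrades p53, were higher with DFO by 0.25 and 0.23. The lower member with the largest difference was Sesn2 (-0.38), which is also an ATF4 target.

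Many mitotic genes were lower with DFO. Of 31 tested, 13 were lower with DFO than with SA and none higher (median -0.19, with 6.30% and 7.22% of all genes). Against the shared controls 25 were lower with DFO (median -0.25, with 2.28% of all genes) and 4 with SA (median -0.06, with 6.75%). After median-of-ratios scaling these were 29 and 12, where 646 and 1624 of all 11917 genes were lower. Cdc20, the activator of the anaphase-promoting complex, read 147, 148 and 145 TPM with DFO, 175, 171 and 177 TPM with SA and 176, 173 and 171 TPM in the controls. The DFO libraries lay below all others, and the SA and control libraries overlapped (log2 difference -0.25 ± 0.022, limma adjusted p = 3.87e-05 between the agents). Ccnb2, a mitotic cyclin, read 106, 108 and 103 TPM with DFO and 119, 122 and 136 TPM with SA (limma adjusted p = 0.0063). Kif20a, a kinesin of cytokinesis, and Nusap1, which bundles spindle microtubules, differed by -0.20 and -0.21. The count depends on the libraries. It was 5 without DFO replicate 2, 7 without DFO replicate 3, 4 without SA replicate 1 and 7 without SA replicate 3, and 25 with voom on recovered reads.

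Replication genes were often lower than in the controls with both agents. With DFO 12 of 42 were lower and with SA 23 (2.28% and 6.75% of all genes). After median-of-ratios scaling 25 were lower with each, where 646 of all 11917 genes were lower with DFO and 1624 with SA. Between the agents, 6 of the 42 were higher with DFO and 2 lower (7.22% and 6.30% of all genes), but 2 were higher and 1 lower with DFO replicate 2 or SA replicate 2 left out, 3 were higher and 2 lower without DFO replicate 1, and 4 were higher and 1 lower without DFO replicate 3 or SA replicate 1 or 3. Mcm5, a subunit of the replicative helicase, read 122, 115 and 121 TPM in the controls, 85.4, 90.6 and 92.8 TPM with DFO and 79.7, 77.8 and 74.2 TPM with SA (log2 difference 0.21 ± 0.045, limma adjusted p = 0.00979). Pcna, the polymerase clamp, stepped down in the same order, at 67.5, 63.6 and 65.2, 58.8, 56.3 and 54.6 and 50.3, 50.5 and 51.1 TPM. E2f2, an activator of the cell cycle in erythroblasts, was lowest with DFO, at 25.6, 25.6 and 26.9 TPM against 32.2, 34.4 and 31.6 TPM with SA (log2 difference -0.32 ± 0.047, limma adjusted p = 0.00112).

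Ribosomal protein mRNAs took 9.52% ± 0.0642 of TPM with DFO, 10.1% ± 0.118 with SA and 8.62% ± 0.124 in the controls (SD, n = 3). Of 84 tested genes 38 were lower with DFO than with SA and 1 higher (6.30% and 7.22% of all genes). The median log2 difference was small, at -0.10, and 24 were lower without SA replicate 1. Against the shared controls 62 were higher with DFO and 75 with SA (8.39% and 15.4% of all genes). After median-of-ratios scaling these were 32 and 67. The share of TPM in genes with under 200 bases of exon was 1.98% ± 0.126 with DFO and 2.13% ± 0.122 with SA, and its part in these differences was not tested. Of 37 tested ribosome biogenesis genes, 1 was lower with DFO and none higher, or 1 each way without SA replicate 3.

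Genes that respond to the hypoxia-inducible factors, whose prolyl hydroxylases need iron, were called between the agents about as often as all genes (13.5%). Of 17 tested outside glycolysis, 1 was higher and 1 lower with DFO, and 2 were higher without DFO replicate 1 or control replicate 1. They were Higd1a, a mitochondrial protein gene (0.18, lost without DFO replicate 2 or 3 or SA replicate 1 or 3, without a filter on low values and in the fit of the 2 groups alone, limma adjusted p up to 0.106), and Narf, a nuclear protein gene (-0.26). Vegfa, the vascular growth factor, read 4.47, 4.78 and 5.53 TPM with DFO, 3.57, 5.17 and 3.82 TPM with SA and 6.95, 9.01 and 8.11 TPM in the controls; DFO and SA overlapped and the 95% interval of their difference was -0.09 to 0.49. Bnip3, a mitophagy receptor, read 182, 214 and 239.9 TPM with DFO and 159, 196 and 162 TPM with SA. These groups overlapped and Bnip3 was not called, with an interval of 0.04 to 0.54. Egln3, Car9 and Ndrg1, which hypoxia commonly induces, were listed at 0 in all 9 libraries. Of 31 tested iron-dependent dioxygenases 1 was higher with DFO and 1, the histone demethylase Kdm4a (-0.15), was lower, none was higher without DFO replicate 2 or SA replicate 1 or 3, and with voom on recovered reads 4 were higher and 3 lower.

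Iron-sulfur clusters are the other large use of iron in the mitochondrion. Of 31 tested genes of cluster assembly, 1 was lower with DFO and none higher (median -0.01, with 6.30% and 7.22% of all genes). Without SA replicate 3, 2 were lower. The 1 lower over all libraries was Nfu1, a late-acting scaffold, at 31.3, 29.3 and 30.2 TPM with DFO, 34.4, 34.7 and 35.5 TPM with SA and 27.8, 27.5 and 28.003 TPM in the controls (log2 difference -0.20 ± 0.033, limma adjusted p = 0.00247). Of 30 tested client proteins 2 were higher with DFO, among them Aco1 (0.22), a share near that of all genes (7.22%), and 1 was higher with any 1 DFO, SA or control library left out, without a filter on low values or in the fit of the 2 groups alone.

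Erythroid maturation genes differed in both directions. Of 17 tested membrane and blood group genes 3 were higher with DFO and 4 lower (7.22% and 6.30% of all genes). Both counts were 2 without DFO replicate 3 or SA replicate 1, and 3 and 2 without SA replicate 2. Dmtn, the actin-bundling dematin, was lower with DFO, at 43.7, 45.2 and 42.4 TPM with DFO and 53.9, 54.8 and 54.9 TPM with SA, and the SA libraries lay beside the controls at 53.2, 52.2 and 54.6 TPM (log2 difference -0.31 ± 0.052, limma adjusted p = 0.00227). Slc4a1, the anion exchanger band 3, differed by -0.17, a call lost without DFO replicate 2 or 3 or any SA replicate (adjusted p up to 0.102).

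Among 23 tested erythroid factors and late genes 3 were higher with DFO and 7 lower (7.22% and 6.30% of all genes). Without DFO replicate 1 or 3 or SA replicate 2, 4 were lower. Nfe2, a globin-activating leucine zipper factor, read 469, 474 and 482 TPM with DFO, 622, 636 and 609 TPM with SA and 522, 525 and 531 TPM in the controls. The controls lay between the agents, and the difference was -0.39 ± 0.02 (limma adjusted p = 1.31e-06). Klf1, the activator of adult beta-globin, read 691, 707 and 704 TPM with DFO and 652, 646 and 609 TPM with SA (log2 difference 0.14 ± 0.026, limma adjusted p = 0.00455). Gata1 was not called (log2 difference 0.07, 95% interval 0.01 to 0.13). Gata2, which GATA1 turns off as maturation proceeds, read 34.2, 36.5 and 37.1 TPM with SA, above all DFO libraries at 27.4, 26.7 and 27.7 TPM and all controls at 27.99, 26.3 and 25.5 TPM (log2 difference -0.38 ± 0.056, limma adjusted p = 0.00105).

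A few genes were called on opposite sides of the controls, as Tfrc was, and are ranked here by the smaller of their 2 differences from the controls. With DFO above and SA below, those ranked next after Tfrc were Pros1, Flot1, Zmat3 and Mllt3. Pros1, the anticoagulant protein S, read 27.7, 26.4 and 27.9 TPM with DFO, 16.3, 15.5 and 16.9 TPM with SA and 21.3, 21.04 and 21.9 TPM in the controls (log2 difference 0.72 ± 0.048, limma adjusted p = 5.09e-06). Flot1, a membrane microdomain scaffold, and Mllt3, a chromatin reader known in blood stem cells, differed by 0.52 and 0.46. With DFO below and SA above, those ranked first were Adgrg1, Hyal1, Nfe2, Ampd3 and Tango2. Adgrg1, an adhesion G protein-coupled receptor, read 70.8, 69.2 and 69.3 TPM with DFO, 98.6, 99.1 and 97.4 TPM with SA and 78.2, 78.7 and 77.1 TPM in the controls (log2 difference -0.49 ± 0.023, limma adjusted p = 8.61e-07). The lysosomal hyaluronidase Hyal1 and the erythrocyte AMP deaminase Ampd3 differed by -0.44 and -0.33.

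Large differences were also seen in genes with other roles, all but Amt and Ndufa4l2 outside the lists above. Higher with DFO, Scamp5, a secretory carrier membrane protein, read 11.6, 11.7 and 11.0 TPM with DFO and 4.48, 5.74 and 6.64 TPM with SA, and DFO lay beside the controls at 12.4, 11.4 and 12.6 TPM (log2 difference 0.92 ± 0.095, limma adjusted p = 9.03e-05). Pgm1, a gene of the phosphoglucomutase family, and Gchfr, the feedback regulator of GTP cyclohydrolase, were higher with DFO by 0.70 and 0.80. The small nucleolar RNA Snora69, 131 bases long, read 13.5, 8.55 and 9.31 TPM with DFO and 3.34, 3.21 and 1.17 TPM with SA; RNAs of this kind are not reliably measured in polyA libraries. Lower with DFO, Gadd45b, a stress-induced growth arrest gene, read 5.01, 6.24 and 5.63 TPM against 10.4, 12.4 and 11.5 TPM with SA (log2 difference -0.91 ± 0.12, limma adjusted p = 7.07e-04). Tspoap1, a synaptic scaffold, Tle6, a Groucho-family corepressor, and Msh5, a meiotic mismatch repair homologue, differed by -0.87, -0.79 and -0.79, and for each of them the DFO difference from the controls was not called while the SA libraries were higher. Amt, the aminomethyltransferase of glycine cleavage, read 2.90, 3.48 and 4.06 TPM with DFO and 5.20, 6.55 and 7.15 TPM with SA. The 67-base mitochondrial tRNA gene mt-Tt (-2.14) and Ndufa4l2 (1.01), a mitochondrial protein gene, had calls that were lost under several alternatives (adjusted p up to 0.153 and 0.0843).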

How the data were processed

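RNA-seq of total RNA from polyA-selected libraries (a stranded mRNA kit, per the labels' protocols) was deposited by the authors as TPM per gene symbol, 1 value a gene and library. The submitters' processing notes list, for the mm10 build, edgeR, featureCounts, HISAT2 2.1.0, FastQC and Trimmomatic 0.33, with no order; the annotation release and the strand setting of the counting were not given in the sources used here. Of 114 symbols that occur more than once, the entry with the higher level was kept. TPM sums to the same total in each library, so a large change in abundant mRNAs moves all others.

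From the TPM values, log2(TPM + 1) was fitted with limma 3.58.1 (R 4.3.3), with 1 mean for each of the 4 groups over all 12 libraries and an empirical Bayes trend. P-values were adjusted by Benjamini-Hochberg over 11917 genes, those reaching 1 TPM in 3 or more libraries, and genes under 0.05 were called. Figures and lists were made with Python 3.11.15. Whole reads were recovered as TPM times GENCODE M21 exon length for symbols with a length, with 98.8% to 99.0% of values under 200 reads whole within 0.1; they gave the depths and a voom fit added after seeing the data. The fit was tested on simulated data.

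Genes named were the 15 largest called, non-overlapping differences in each direction with a mean of at least 5 TPM and no predicted gene models, up to 5 called members of each list, the 5 largest opposite differences in each direction, a fixed set of iron, heme, ATF4, hypoxia and metallothionein genes, and carriers of the iron-responsive element. Other list members named as not called or as a further example (Acaca, Acly, Bax, Cat, Eif2ak1, Exoc6, Fam210b, G6pdx, Gata1, Gclm, Gsr, Hba-a2, Hba-x, Hbb-bt, Ireb2, Kif20a, Klf1, Mdm2, Nqo1, Nupr1, Nusap1, Pcbp1, Prdx1, Srebf2, Tubb1 and Txnrd1) were chosen after their values were seen. Some list members are counted but not reported by name here. The comparison, the lists and their members were chosen with earlier results of these data known. Alternatives were other pseudocounts (0.1 and 5), filters (none and 5 TPM), scalings, the replicate block, a robust fit, a fit of the compared groups alone and each replicate left out. Over all genes, same-numbered libraries did not deviate together (correlations of -0.043 to 0.054), and the numbers were not treated as pairs in the main fit. Replicates of a group differed by more than sampling noise in every pair.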

Additional observations from a re-analysis of the deposited data

How the results depend on the processing

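None of the 164 called genes among the 173 named reversed its direction under any alternative. For calls between DFO and SA, of all genes or of the named genes, fits without a control replicate were not counted here. Between DFO and SA, 1611 calls became 1134 to 1207 with 1 DFO or SA library left out and 1243 to 2125 under the other alternatives. Genes higher with DFO were 603 to 650 and 653 to 1055, and genes lower 499 to 595 and 563 to 1070. The lowest of these, 499, came without DFO replicate 3. Calls of DFO against the controls, 1272, were 802 when only those groups' libraries were fitted, 840 to 960 with 1 library left out and up to 1444 otherwise; SA against the controls, 2642, gave 2039 to 2217 and 2150 to 3018. Fewer samples enter those fits. With the replicate block, DFO against SA gave 1407 calls, 745 higher and 662 lower. The correlations of same-numbered DFO and SA libraries were -0.012, 0.014 and 0.030. Correlations over all genes cannot show whether same-numbered cultures were handled together, which the labels do not say. Of the 164 called named genes 117 kept the call under every alternative counted. The other 47 lost it under some, 31 of them when genes of low level were kept and 28 to 37 with a DFO or SA library left out. Of the 9 not called, 3 were called under some alternative. With 3 libraries a group and 19864704 reads or more in each, low genes such as Hbb-y under SA rest on few reads.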

Other observations

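Some mitochondrial energy genes were higher with DFO than with SA, where 7.22% of all genes were higher and 6.30% lower. Of 79 tested nuclear genes of the respiratory chain 7 were higher with DFO and none lower, a share near that of all genes, 5 were higher and 1 lower without SA replicate 2, and 3 were higher without DFO replicate 2, without DFO replicate 3 or without SA replicate 3, and 4 without SA replicate 1. Cox6b2, a cytochrome oxidase subunit isoform best known from testis, read 401, 380.0 and 399 TPM with DFO and 259, 269.8 and 256 TPM with SA (log2 difference 0.59 ± 0.034, limma adjusted p = 2.40e-06), and Uqcrq, a complex III subunit, was higher by 0.15. Of 24 tested genes of pyruvate dehydrogenase and the TCA cycle 4 were higher with DFO and none lower, or 3 and 1 without SA replicate 2 or control replicate 2, led by pyruvate carboxylase (Pcx, 0.25) and oxoglutarate dehydrogenase (Ogdh, 0.21). Of 22 tested genes of glycolysis and glucose uptake 2 were higher and 3 lower with DFO; Hk1, a hexokinase, differed by -0.12, and without DFO replicate 2 or SA replicate 3 the counts were 0 and 1, without SA replicate 1 they were 0 and 2, without DFO replicate 3 they were 1 and 1, and without SA replicate 2 they were 3 and 1.

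Some proteasome genes were also higher with DFO. Of 35 tested proteasome subunits 6 were higher with DFO and none lower (7.22% and 6.30% of all genes), and 3 without DFO replicate 2 or 3 or any SA replicate; the regulatory subunits Psmd1 and Psmd11 were higher by 0.21 and 0.20. Of 29 tested autophagy genes 3 were higher and 3 lower, or 2 higher and 1 lower without DFO replicate 2 or SA replicate 2. The cargo receptor Sqstm1 read 295, 298 and 289.6 TPM with DFO and 265, 268 and 259 TPM with SA, and its relative Calcoco1 121, 122 and 126 TPM and 130.3, 139 and 135 TPM. The metallothionein Mt1, a zinc-responsive metal buffer, read 2033, 2059 and 2017 TPM with DFO, 1737, 1751 and 1699 TPM with SA and 1790.0, 1902 and 1923 TPM in the controls (log2 difference 0.24 ± 0.029, limma adjusted p = 2.94e-04), whereas its neighbour Mt2 overlapped between the groups (log2 difference 0.01, 95% interval -0.16 to 0.19).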
